A study of Mus musculus with 12 samples.

Results

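Chromatin accessibility was described around 10 genes of the Hippo pathway in transformed mouse embryonic fibroblasts (MEFs): the DNA-binding factors Tead1, Tead2, Tead3 and Tead4, the coactivators Yap1 and Wwtr1, the kinases Lats1 and Lats2, the angiomotin Amotl2 and the target gene Ankrd1. Accessible sites came from ATAC-seq, a method that reads open DNA from the cuts of a transposase. Every peak that overlapped the gene body or 50 kb on either side was taken, with gene models from GENCODE basic on mm10. Peaks of 7 deposited lists that overlapped by at least 1 bp were merged into a locus, and a locus was called open in a list that had a peak there and closed in a list that had none. The 10 genes held 206 loci, of 147985 in the series and of 117801 in the same windows of all protein-coding genes.

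The 12 libraries fell into 7 groups, each with 1 peak list. Hdac7SA.Mef2d carried the transcription factor Mef2d together with Hdac7SA, a histone deacetylase whose serines were changed to alanine to keep it in the nucleus. Hras.E1A carried activated Hras with the adenoviral protein E1A, and Hras.Myc carried activated Hras with Myc. Both Hras lines were profiled after 2 days of PD (PD0325901, a MEK inhibitor), after 2 days of TSA (trichostatin A, an inhibitor of histone deacetylases) and untreated, and Hdac7SA.Mef2d only untreated. The TSA groups had 1 library each and the other 5 groups had 2 libraries each, from about 50000 cells per library. Transgenes were in every line, so no group was an untransformed MEF, and the lines had been passaged for at least a month. The sample labels name OG2 MEFs, whereas the growth protocol names embryos of the ICR background. The study's methods state that OG2 lines were used throughout except for listed figures, and that list leaves out the ATAC-seq. Since each list pools its libraries, no spread between replicates could be computed, no difference was tested, and intervals given for shares are exact (Clopper-Pearson) 95% intervals that cover counting error only.

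In the Hippo pathway, Lats kinases phosphorylate Yap1 and Wwtr1 (also named Taz) and keep them out of the nucleus. When the kinases are inactive, Yap1 and Wwtr1 bind TEAD factors on DNA and switch on growth and cytoskeletal genes. In fibroblasts the pathway is known to respond to cell density and to tension in the actin cytoskeleton.

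The lists held 56774 to 119251 peaks, the fewest in Hras.Myc PD and the most in Hdac7SA.Mef2d, and the members' loci made up 0.144 to 0.182% of the open loci in each list. Each peak carries a score, and the labels and methods do not state its scale. Its lowest value was 1.20 in every list, and scores of different lists are set side by side without being read as higher or lower. Of 8 fibroblast marker genes, 5 to 8 had an open promoter in each list, while 0 of 3 blood genes did in any list. The promoter of Epcam, an epithelial marker, was open in all 7 lists, and that of the endothelial marker Pecam1 in 4, while those of the epithelial Krt5 and the endothelial Cdh5 were open in 0. The paper reports chromatin at Epcam that was open in both Hras lines and closed with PD. Whether those regions include this promoter was not examined. A locus open in more cells and a locus more open in each cell cannot be told apart in such bulk data.

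The sequences below carry the states described later. They are stretches of 100 bases of the reference (GRCm38, the build also called mm10, plus strand) from loci that were open in both untreated Hras lists and closed in both PD lists. Capitals mark AP-1 letters (TGANTCA, the site of Fos and Jun factors), or in the Wwtr1 intron named so TEAD letters (GGAATG, or CATTCC on the other strand). All of these loci were open in the other 5 lists, except that the Tead1 intron was closed in Hdac7SA.Mef2d. A locus is named for the member whose window it overlaps, which need not be the gene it acts on. The nearest coding start to the Wwtr1 downstream locus is that of Tm4sf4, and to the Lats2 upstream locus that of Sap18.
Wwtr1 downstream, chr3:57411758-57411857: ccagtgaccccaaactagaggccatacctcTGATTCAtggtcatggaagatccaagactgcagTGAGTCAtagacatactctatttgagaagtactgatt
Wwtr1 intron, AP-1 letters, chr3:57510382-57510481: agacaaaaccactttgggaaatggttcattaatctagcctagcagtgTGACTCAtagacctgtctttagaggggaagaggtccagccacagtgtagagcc
Wwtr1 upstream, chr3:57612695-57612794: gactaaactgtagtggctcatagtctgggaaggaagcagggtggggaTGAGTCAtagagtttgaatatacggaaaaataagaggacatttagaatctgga
Wwtr1 intron, TEAD letters, chr3:57546900-57546999: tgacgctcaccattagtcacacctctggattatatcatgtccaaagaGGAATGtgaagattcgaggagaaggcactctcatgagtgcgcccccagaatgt
Tead1 upstream, chr7:112645850-112645949: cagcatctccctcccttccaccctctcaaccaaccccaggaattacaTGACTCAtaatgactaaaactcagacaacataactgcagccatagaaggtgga
Tead1 intron, chr7:112745004-112745103: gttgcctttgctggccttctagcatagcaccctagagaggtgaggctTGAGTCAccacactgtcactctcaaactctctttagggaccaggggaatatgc
Lats2 upstream, chr14:57791234-57791333: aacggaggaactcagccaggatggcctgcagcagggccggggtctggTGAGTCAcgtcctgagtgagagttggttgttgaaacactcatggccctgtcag

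Loci closed in both untreated Hras lists and open in both PD lists numbered 7, and 3 of them held TEAD letters. Of these, 2 at Tead1 are shown with the TEAD letters in capitals, and in the downstream one capitals also mark AP-1 letters.
Tead1 upstream, chr7:112656217-112656316: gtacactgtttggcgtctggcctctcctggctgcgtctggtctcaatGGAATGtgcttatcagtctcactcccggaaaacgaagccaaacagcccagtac
Tead1 downstream, chr7:112930690-112930789: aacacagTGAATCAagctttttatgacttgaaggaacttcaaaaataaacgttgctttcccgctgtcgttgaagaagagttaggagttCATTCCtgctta

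Promoters of 8 of the members were found in RefSeq (GRCm38.p6; 250 bases before to 50 after the annotated start), all but those of Tead1 and Tead4. TEAD letters on either strand lay in 4 of these 8, against 14.7% of 32851 promoters, and AP-1 letters lay in 0 of 8, against 7.81%. The matches are shown on the gene's strand with TEAD letters in capitals. They began 141 bases before the start of Yap1, 170 before that of Wwtr1, 210 and 123 before that of Ankrd1 and 65 before that of Amotl2. At Ankrd1 and Amotl2 the matches fall in the first exon of a longer GENCODE transcript, so only 26 bases are given. The matches at Yap1, Wwtr1 and Ankrd1 lay inside a locus open in all 7 lists, and no peak of any list covered the one at Amotl2.
Yap1 promoter, chr9:8004675-8004794: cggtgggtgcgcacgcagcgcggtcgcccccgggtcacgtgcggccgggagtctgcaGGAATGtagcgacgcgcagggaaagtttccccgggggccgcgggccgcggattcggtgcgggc
Wwtr1 promoter, chr3:57575984-57576103: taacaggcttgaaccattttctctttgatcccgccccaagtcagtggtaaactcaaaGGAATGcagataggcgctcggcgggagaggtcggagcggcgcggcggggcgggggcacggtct
Ankrd1 distal match, chr19:36120039-36120064: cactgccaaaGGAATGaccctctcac
Ankrd1 proximal match, chr19:36119952-36119977: cactaagtctGGAATGaaaattcacc
Amotl2 match, chr9:102717729-102717754: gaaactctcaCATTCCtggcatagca

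A promoter locus, one within 1000 bp of a GENCODE coding start of the gene itself, was open in all 7 lists at 9 of the 10 genes, all but Amotl2. Over all coding genes with a locus, 63.2% had a promoter open in all 7 lists, and 73.9% of those with at least 10 loci. At Lats2 the promoter locus lies 12.2 kb inside the gene, at another start, and the RefSeq promoters of Tead3 and Lats2 overlapped 0 loci. In all, 60 of the 206 loci (29.1%) were open in every list, against 23.6% over the windows of all protein-coding genes. The plot of open loci by gene and list shows fewer open loci with PD at most members.

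**Figure D1:**
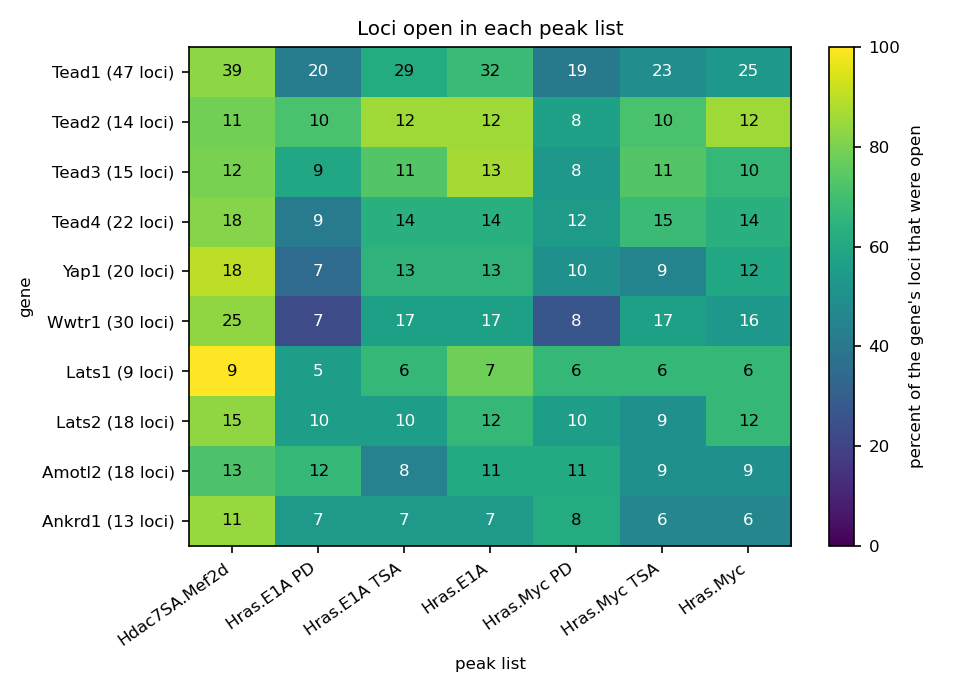
Number of loci open at each gene (rows) in each peak list (columns), with the colour giving the percent of the gene's loci that were open. Wwtr1 had 7 and 8 open loci of 30 in the PD lists, against 17 and 16 in the untreated Hras lists and 25 in Hdac7SA.Mef2d, while Amotl2 had 12 and 11 in the PD lists, against 11 and 9 untreated.

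With PD, 56 of the 138 member loci open in untreated Hras.E1A were closed (40.6%, interval 32.3 to 49.3%), against 36.4% over all windows. In Hras.Myc, 40 of 122 were closed (32.8%, interval 24.6 to 41.9%), against 36.6%. Of loci open with PD, 14 of 96 (14.6%) had been closed before treatment in Hras.E1A, against 14.9%, and 18 of 100 (18%) in Hras.Myc, against 22.8%. Taken as a group and with all peaks, the members were thus near the level of all genes in both directions. PD lists were shorter than untreated ones, so all lists were also cut to the same number of top-scoring peaks. The closed share was then 22.6% in Hras.E1A, against 32.9% over all windows, and 28% in Hras.Myc, against 34.4%. The opened shares were 29.3%, against 34.9%, and 28%, against 33.4%. Closed minus opened was -8 in Hras.E1A, against 42 with all peaks, and 0 in Hras.Myc, against 22. Lists of equal length bring closed and opened counts close together over the series by construction. Over all windows, 15717 loci closed and 17121 opened in Hras.E1A, and 17039 and 16348 in Hras.Myc. Loci closed with PD also had low scores before treatment: their median score percentile within the list was 24.1 in untreated Hras.E1A, against 51.6 for loci that kept their peak, and 29.2 against 52.1 in Hras.Myc. Over all windows these medians were 40.8 against 52.3 and 41 against 52.8. The part of list length and of low scores in the closed loci was not tested.

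Away from promoters of any coding gene, 52 of 112 member loci closed in Hras.E1A (46.4%), against 44.6% over all windows, and 37 of 97 in Hras.Myc (38.1%), against 46.0%. The distal loci opened were 14 of 74 open with PD in Hras.E1A (18.9%), against 19.4%, and 18 of 78 in Hras.Myc (23.1%), against 30.2%. In Hras.E1A, PD closed 29 of 49 open intron loci (59.2%, interval 44.2 to 73%), against 47.1% of intron loci over all coding genes, and 23 of 73 in flanks (31.5%, interval 21.1 to 43.4%), against 29.5%. In Hras.Myc it closed 16 of 40 in introns (40%), against 48.2%, and 23 of 68 in flanks (33.8%), against 30.5%. Introns thus had the higher closed share at the members as they had over all genes. Of the flanking loci, 17 lie at promoters of other genes.

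Single members had 6 to 32 open loci in the untreated lists, and their shares spread widely. The closed share ran from 16.7% at Tead2 to 64.7% at Wwtr1 in Hras.E1A, and from 0% at Ankrd1 to 62.5% at Wwtr1 in Hras.Myc. Over all genes with at least 5 open loci the quartiles were 16.7 and 41.7% in Hras.E1A and 16.7 and 42.9% in Hras.Myc.

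**Figure D2:**
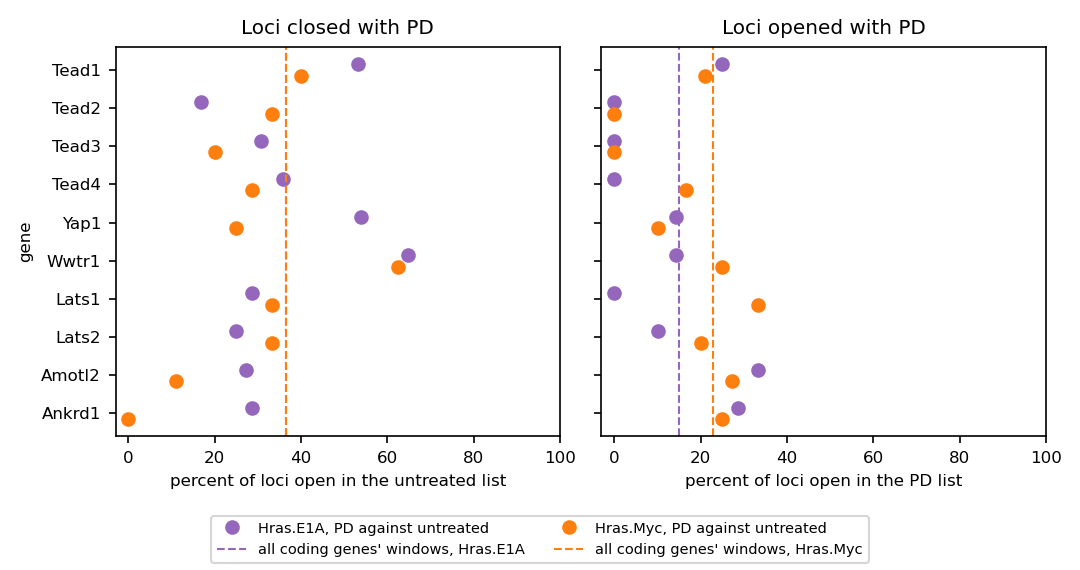
Percent of loci closed with PD (left, of loci open in the untreated list) and opened with PD (right, of loci open in the PD list) at each gene, for Hras.E1A and Hras.Myc, with dashed lines for the windows of all protein-coding genes. The closed lines of both Hras lines nearly coincide at 36.4 and 36.6%, and Wwtr1 lies beyond them in both, at 64.7 and 62.5%.

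Tead1, which encodes a TEAD factor widely present in mouse tissues, had the most loci of any member, 47, of which 34 lie in introns of its 227-kb body (chr7:112679318-112906807). It had 20 open loci in Hras.E1A PD, 29 with TSA and 32 untreated. In Hras.Myc it had 19 with PD, 23 with TSA and 25 untreated, and in Hdac7SA.Mef2d it had 39. The lists without PD therefore had more open loci in both Hras lines. PD closed 17 of 32 loci (53.1%) in Hras.E1A and 10 of 25 (40%) in Hras.Myc, and 7 loci closed in both. Among genes with at least 10 open loci, 9.25% had a share as high in Hras.E1A, where the median gene lost 30%. This place fell to 44.7% of genes with lists of equal size. Without promoter loci, 17 of 30 Tead1 loci closed in Hras.E1A (56.7%), against 44.6% of distal loci over all windows.

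The promoter locus of Tead1, centred 90 bp inside the gene, was open in every list, with scores of 4.77 in Hras.E1A PD, 4.34 with TSA and 3.05 untreated. It scored 5.04 with PD, 4.59 with TSA and 3.79 untreated in Hras.Myc, and 3.83 in Hdac7SA.Mef2d. The locus 33.4 kb upstream, whose AP-1 letters are printed above, was closed in both PD lists and scored 11.9 with TSA and 15.7 untreated in Hras.E1A, 17.3 with TSA and 9.48 untreated in Hras.Myc, and 8.03 in Hdac7SA.Mef2d. About 10 kb nearer the gene, at 23 kb upstream, a locus with TEAD letters did the reverse. It scored 6.76 in Hras.E1A PD, 7.57 in Hras.Myc PD and 7.85 in Hdac7SA.Mef2d, and was closed in both TSA lists and both untreated Hras lists. The locus 251 kb from the gene start, in the downstream flank and nearest the coding start of Rassf10, had the same states, with 5.77, 4.19 and 6.06. Both gained loci were open in Hdac7SA.Mef2d, which was never treated with PD and had 171 of all 206 member loci open. A second promoter, 62.7 kb into the gene, was open in Hdac7SA.Mef2d alone, with a score of 2.71.

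**Figure D3:**
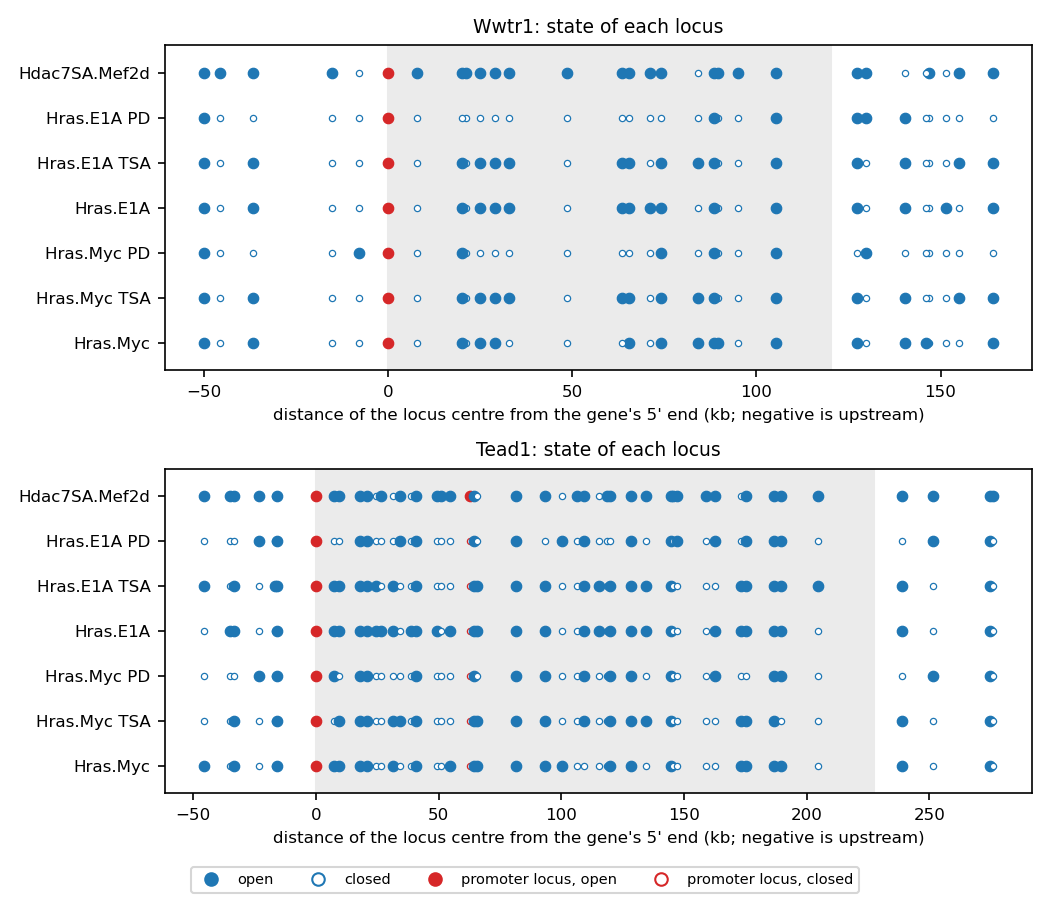
State of each locus of Wwtr1 and Tead1 (x axis, kb from the gene's 5' end; grey, the gene body) in each of the 7 lists (rows); filled circles are open, empty circles closed, and red marks promoter loci. In Wwtr1 the row of Hras.E1A PD has 7 filled circles and that of Hras.Myc PD has 8, against 17 and 16 in the untreated rows, with the promoter filled in all 7.

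The other TEAD genes changed less. At Tead2, a TEAD factor of early embryos and neural progenitors, PD closed 2 of 12 open loci in Hras.E1A and 4 of 12 in Hras.Myc and opened 0 in either. Only 1 of its 14 loci has the start of Tead2 as the nearest coding start, and 5 lie at promoters of neighbouring genes. At Tead3, 4 of 13 loci closed in Hras.E1A and 2 of 10 in Hras.Myc, with 0 opened. Tead4, which acts in the trophectoderm of the embryo, lost 5 of 14 in Hras.E1A with 0 opened and 4 of 14 in Hras.Myc with 2 opened. One intron locus of Tead4, 35.4 kb from its start and with AP-1 letters, separated the lines: it was open in both untreated lists and in Hras.E1A PD, and closed in Hras.Myc PD. Its score was 5.45 with PD and 12.1 untreated in Hras.E1A, and 9.26 in Hras.Myc without treatment. It scored 13.7 in Hras.E1A TSA, 13.7 in Hras.Myc TSA and 9.56 in Hdac7SA.Mef2d. The first promoter of Tead4 was open in all 7 lists and held 3 matches to TEAD letters, and a second one 25 kb into the gene was open in Hdac7SA.Mef2d alone, with 2.87.

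Yap1, the coactivator that gives the pathway its usual readout, had 7 open loci in Hras.E1A PD, 13 with TSA and 13 untreated. It had 10 with PD, 9 with TSA and 12 untreated in Hras.Myc, and 18 in Hdac7SA.Mef2d. PD closed 7 of 13 loci (53.8%) in Hras.E1A, a share that 8.85% of genes reached, and 3 of 12 in Hras.Myc. With lists of equal size the share in Hras.E1A was 28.6%, of 7 loci. Without promoter loci it was 60%, of 10 loci, against 44.6% of distal loci over all windows. The 3 loci closed in Hras.Myc were all closed in Hras.E1A too. They lay 102 and 75.9 kb from the start in the downstream flank, nearer the start of Birc3, and 14.5 kb upstream of Yap1. A promoter locus 1058 bp inside the gene was closed in Hras.E1A PD and open in both untreated lists and in Hras.Myc PD. It scored 2.35 untreated in Hras.E1A, and 1.44 with PD and 2.82 untreated in Hras.Myc. The main promoter, with its printed TEAD letters, was open in all 7 lists, with 8.16 with PD and 6.12 untreated in Hras.E1A, and 6.95 with PD and 5.11 untreated in Hras.Myc. It scored 5.55 and 6.12 in the TSA lists and 6.17 in Hdac7SA.Mef2d.

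Wwtr1, the paralogue of Yap1, lost the largest share of any member in both lines: 11 of 17 open loci closed in Hras.E1A (64.7%) and 10 of 16 in Hras.Myc (62.5%). Of all 30 loci at Wwtr1, 15 had the Wwtr1 start as the nearest coding start. Only 2.29% of the 7591 genes with at least 10 open loci had as high a share in Hras.E1A, and 3.54% of 6305 in Hras.Myc, with a median gene at 30% in each. With lists of equal size the shares were 50 and 53.8%, which 19.6% of 1876 genes and 9.8% of 3254 genes reached, with medians of 30.8 and 29.4%. With the 75% of peaks that scored highest, the shares were 53.8% in both lines. They were reached by 19.6% of 2613 genes and 23.2% of 1856, with a median gene at 40% in each. The set of genes compared thus changed with the setting too, and what moved the place of Wwtr1 was not tested. These places count promoter loci too. Without promoter loci and with all peaks, 10 of 15 Wwtr1 loci closed in each line (66.7%). The level of distal loci over all windows was 44.6% in Hras.E1A and 46.0% in Hras.Myc. Places among genes were not computed for distal loci alone.

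At Wwtr1, TSA closed 2 and opened 2 loci in Hras.E1A, and closed 2 and opened 3 in Hras.Myc, with 17 open loci in each TSA list, against 17 and 16 untreated. Of the 12 loci at all members that were closed in both PD lists and open in the other 5 lists, 5 were at Wwtr1. The one farthest downstream, 164 kb from the start and with 2 AP-1 matches, lies 13338 bp from the start of Tm4sf4, the nearest coding start. This locus was closed in both PD lists and scored 8.42 with TSA and 13.6 untreated in Hras.E1A, 13.4 with TSA and 17.5 untreated in Hras.Myc, and 8.30 in Hdac7SA.Mef2d. Its neighbour in the same class, in an intron 65.5 kb from the start, scored 10.2 with TSA and 7.18 untreated in Hras.E1A, 5.12 with TSA and 10.5 untreated in Hras.Myc, and 7.27 in Hdac7SA.Mef2d. The locus 36.8 kb upstream scored 4.95 with TSA and 9.96 untreated in Hras.E1A, 2.78 with TSA and 12.6 untreated in Hras.Myc, and 9.04 in Hdac7SA.Mef2d. These 3 loci held AP-1 letters and no TEAD letters. The remaining pair, 29 and 24.9 kb into the gene, held TEAD letters and no AP-1 letters, and had scores of 1.46 to 6.43 where they were open. The promoter of Wwtr1 was open in every list, with 7.27 with PD and 6.18 untreated in Hras.E1A, and 6.45 with PD and 8.31 untreated in Hras.Myc.

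Lats1 and Lats2, the kinases that restrain both coactivators, kept most of their open loci, as was the case over all windows. Together 5 of 19 closed with PD in Hras.E1A (26.3%, interval 9.15 to 51.2%), against 36.4% over all windows. In Hras.Myc 6 of 18 closed (33.3%, interval 13.3 to 59%), against 36.6%. At Yap1 and Wwtr1 together 18 of 30 closed (60%, interval 40.6 to 77.3%) in Hras.E1A and 13 of 28 (46.4%, interval 27.5 to 66.1%) in Hras.Myc. The intervals of kinases and coactivators overlap in both lines. The groups also differ in promoter content. Of 9 Lats1 loci, 1 lies at its own promoter and 3 at promoters of other genes. At Lats2 these were 1 and 2 of 18, at Yap1 2 and 1 of 20, and at Wwtr1 1 and 1 of 30. Over all members, 4 of 26 open loci at promoters of any coding gene closed in Hras.E1A, against 52 of 112 distal loci. The share of the kinases without promoter loci was not computed. In Hras.Myc, Yap1 alone lost 3 of 12 (25%), a lower share than the kinases, and Wwtr1 10 of 16 (62.5%). Lats1 had 9 loci, all open in Hdac7SA.Mef2d. Its locus 75.7 kb from the start, with AP-1 letters and nearest the coding start of Ginm1, was closed in both PD lists. It was open in the other 5, with scores of 7.26 to 10.8. The Lats2 locus 33 kb upstream, printed above and nearest the coding start of Sap18, did the same. It scored 8.53 with TSA and 8.04 untreated in Hras.E1A, 5.29 with TSA and 9.53 untreated in Hras.Myc, and 11 in Hdac7SA.Mef2d. A promoter locus of each kinase was open in all 7 lists, the one of Lats2 at the start 12.2 kb inside the gene.

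Amotl2, a junction protein that binds Yap1 and is itself a known Yap1 target, was the member at which more loci opened than closed with PD in both lines, by 1 locus in Hras.E1A and by 2 in Hras.Myc. Of all genes with at least 10 loci, 9.04% had more opened than closed in Hras.E1A and 15.9% in Hras.Myc. At Amotl2, PD opened 4 loci and closed 3 in Hras.E1A, and opened 3 and closed 1 in Hras.Myc. The loci opened in Hras.E1A at 42.8 and 52.5 kb from the start scored 1.26 and 1.46, near the lowest score. Loci gained in both lines numbered 2, beyond the 3' end of the 16.7-kb gene. One of them, 39.8 kb from the start, scored 6.03 in Hras.E1A PD and 3.81 in Hras.Myc PD, was also open with 2.21 in Hras.Myc TSA, and was closed in the other 4 lists. Within 10 kb of the gene the balance turned round, with -3 for Hras.E1A, and -1 for Hras.Myc, and with only the 75% of peaks that scored highest it was 0 in both. With lists of equal size it was 3 in Hras.E1A and 4 in Hras.Myc. The gain of Amotl2 rests on loci far from the gene. Its only promoter locus was closed in both PD lists, in Hras.Myc TSA and in Hdac7SA.Mef2d, and had scores of 1.84 in Hras.E1A TSA, 1.21 in Hras.E1A without treatment and 1.48 in Hras.Myc without treatment, all near the lowest score of the lists.

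Ankrd1, a cardiac and stress-induced ankyrin-repeat protein used as a readout of Yap1 activity, lost 2 of 7 open loci with PD in Hras.E1A and 0 of 6 in Hras.Myc, and gained 2 in each. The locus in its exon, 2.4 kb inside the gene, was the one gained in both lines, with scores of 1.56 and 1.20 that lie at the bottom of the lists. The promoter locus that holds both printed TEAD matches was open in every list, with 6.94 in Hras.E1A PD, 6.21 with TSA and 6.95 untreated. It scored 4.00 with PD, 10.2 with TSA and 5.97 untreated in Hras.Myc, and 4.32 in Hdac7SA.Mef2d. The locus 9.3 kb upstream, also with TEAD letters, was open in all 7 lists as well.

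**Figure D4:**
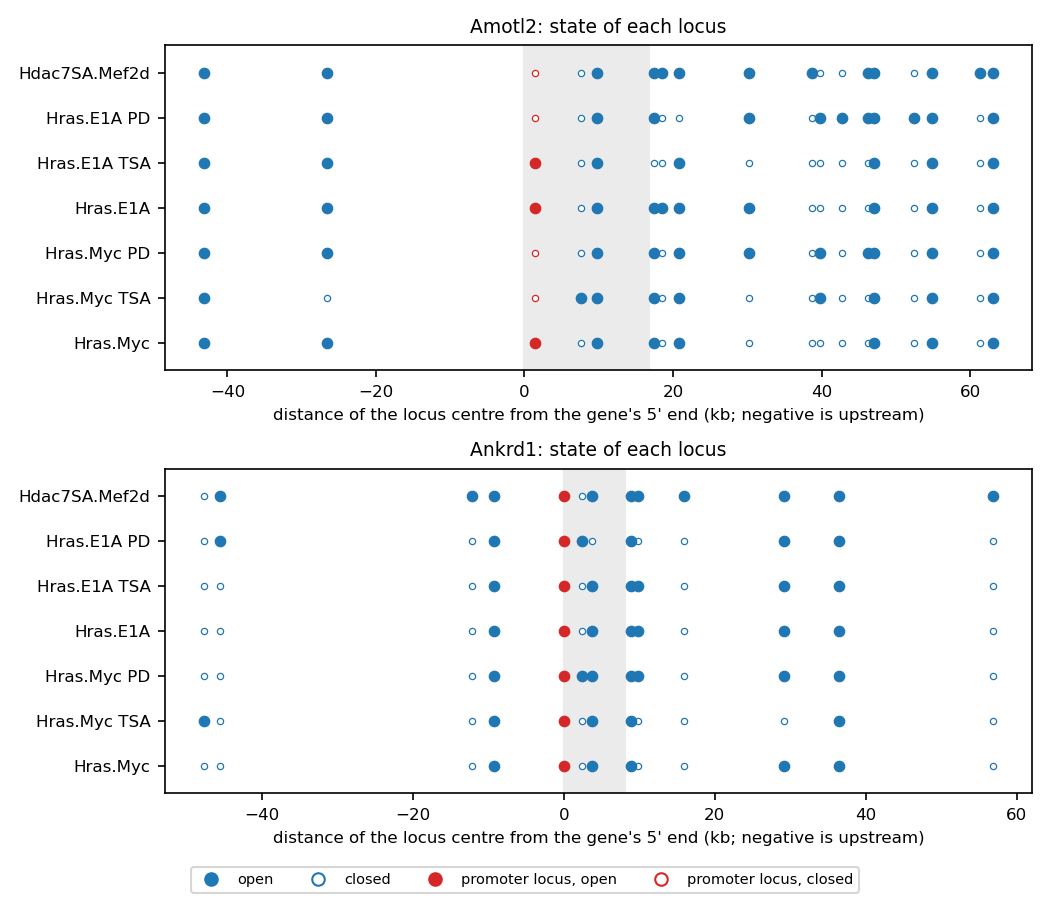
State of each locus of Amotl2 and Ankrd1 (x axis, kb from the gene's 5' end; grey, the gene body) in each of the 7 lists (rows); filled circles are open, empty circles closed, and red marks promoter loci. The Amotl2 promoter circle is filled in 3 of the lists and the Ankrd1 promoter circle in all 7.

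Each Hras line had its own untreated list to set PD against, so loci changed in both lines can be counted. Of 113 member loci open in both untreated lists, 24 closed in both (21.2%), against 22.7% over all windows, and 69 kept a peak in both. The 24 lay at Tead1 (7), Wwtr1 (5), Yap1 (3), Tead2, Lats1 and Lats2 (2 each) and Tead3, Tead4 and Amotl2 (1 each). Of them, 16 were open in Hdac7SA.Mef2d, the longest list, which had 171 of all 206 member loci open. Loci closed in both PD lists and open in the other 5 lists were 12 of 206 (5.83%), against 4.74%. Those open in both PD lists and closed in both untreated ones were 7 of 206 (3.4%), against 2.56%, and 5 of the 7 were open in Hdac7SA.Mef2d. For the counts of 16 and 5 open in Hdac7SA.Mef2d, no level over all windows was computed.

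TSA changed fewer loci than PD, in lists made from 1 library each and set against the same untreated lists as PD. In Hras.E1A it closed 20 of 138 (14.5%, interval 9.08 to 21.5%), against 14.9% over all windows, and in Hras.Myc 20 of 122 (16.4%, interval 10.3 to 24.2%), against 16.0%. The share of newly open loci was 9 of 127 with TSA in Hras.E1A (7.09%, interval 3.29 to 13%), against 13.2%, and 13 of 115 in Hras.Myc (11.3%, interval 6.16 to 18.6%), against 18.8%. These opened shares lay below the level of all windows, whose value is just outside the interval in both lines. The intervals cover counting error only, and the difference was not tested. By gene, the median opened share of the members was 3.85% in Hras.E1A, against 10% over genes with at least 5 open loci. In Hras.Myc it was 13.2%, against 14.3%. With only the 75% of peaks that scored highest the opened shares were 13.5% in Hras.E1A TSA, against 17.4% over all windows, and 17.3% in Hras.Myc TSA, against 23.7%. Ankrd1 kept all 7 of its open loci in Hras.E1A TSA, and Amotl2 lost 3 of 11 there.

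Hdac7SA.Mef2d, the longest list, had 171 of the 206 loci open. It had 53 open loci that were closed in Hras.E1A (31%, interval 24.2 to 38.5%), against 39.6% over all windows, and 68 that were closed in Hras.Myc (39.8%, interval 32.4 to 47.5%), against 49.2%. In the other direction, 20 of 138 loci open in Hras.E1A were closed in Hdac7SA.Mef2d (14.5%), against 18.7%, and 19 of 122 open in Hras.Myc (15.6%), against 20.3%. With lists of equal size the larger direction turned round. Then 32.9% of the loci open in Hdac7SA.Mef2d were closed in Hras.E1A, against 42.0% over all windows, and 31.4% in Hras.Myc, against 48.5%, while 44% of those open in Hras.E1A were closed in Hdac7SA.Mef2d, against 48.3%, and 52% of those open in Hras.Myc, against 55.8%. Both comparisons share the list of Hdac7SA.Mef2d. Loci open in it alone numbered 33 (16%), against 19.9%, with 7 each at Tead1 and Wwtr1 and 4 at Yap1. One of these, in an intron of Wwtr1 95 kb from the start, scored 14.3. Between the untreated Hras lines, 25 of 138 loci open in Hras.E1A were closed in Hras.Myc (18.1%), against 22.9%, and 9 of 122 open in Hras.Myc were closed in Hras.E1A (7.38%), against 10.1%. With lists of equal size this order turned round too, at 8.33%, against 20.4% over all windows, and 23%, against 23.4%.

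Matches to TEAD and AP-1 letters on either strand were counted within 200 bp at the middle of every locus. TEAD letters lay in 43 of the 206 loci (20.9%), against 18.9% of all loci in the series, and AP-1 letters in 50 (24.3%), against 29.2%, with 8 loci holding both. AP-1 letters lay in 10 of the 24 loci closed with PD in both lines (41.7%, interval 22.1 to 63.4%), against 67.5% of all such loci, and in 7 of the 69 kept in both (10.1%, interval 4.18 to 19.8%), against 16%. The members thus had the same order as the series, with AP-1 letters more frequent among closed than among kept loci, at a lower share of closed loci. TEAD letters lay in 2 of the 24 closed (8.33%, interval 1.03 to 27%), against 14.6% of all such loci, in 3 of the 7 opened (42.9%, interval 9.9 to 81.6%), against 30.8%, and in 18 of the 69 kept (26.1%, interval 16.3 to 38.1%), against 13.4%. Of the 13 promoter loci, 6 held TEAD letters, and 3 did in the central 100 bp. The share over all promoter loci was not computed, so these counts have no level to be set against.

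**Figure D5:**
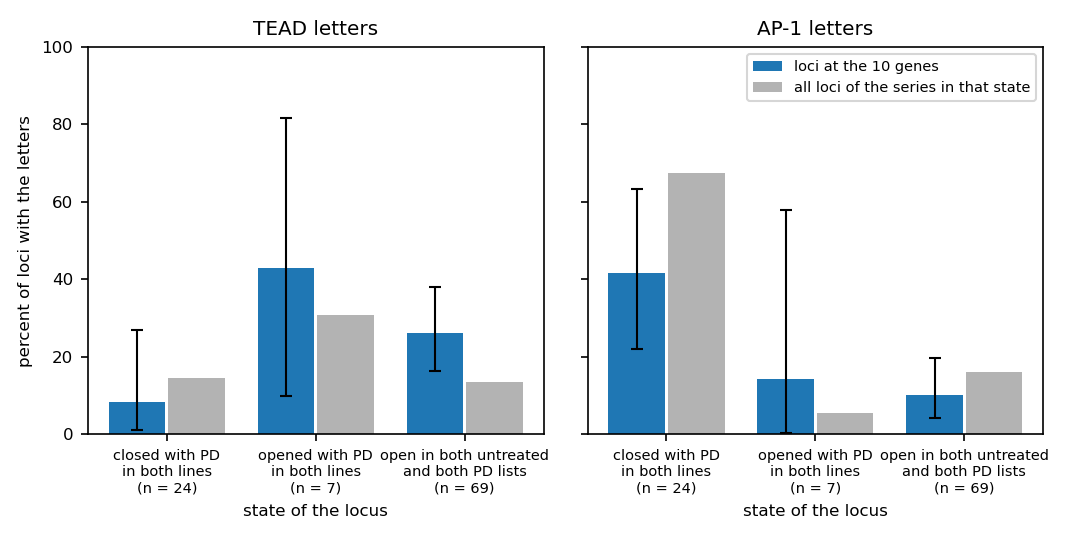
Percent of loci with TEAD letters (left) and AP-1 letters (right) by state of the locus, for the 10 genes (blue, with exact 95% intervals) and for all loci of the series in that state (grey). AP-1 letters were in 41.7% of closed and 10.1% of kept member loci, and TEAD letters in 8.33 and 26.1% of the same sets.

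Counted over a wider list of 30 pathway genes that leaves out the members, PD closed 120 of 409 open loci in Hras.E1A (29.3%), against 36.4% over all windows, and 115 of 346 in Hras.Myc (33.2%), against 36.6%. More loci closed than opened at 22 of the 30 genes in Hras.E1A and at 21 in Hras.Myc. Over all 19928 genes with a locus these shares were 69.4 and 61.5%, and over those with at least 10 loci 78.9 and 70.1%. More opened than closed at 2 in Hras.E1A and at 3 in Hras.Myc, against 9.26 and 15.4% of all genes with a locus. Over genes with at least 10 loci these shares were 9.04 and 15.9%. A promoter was open in every list at 28 of the 30, against 63.2% of all genes with a locus, or 73.9% of those with at least 10 loci, a size that 28 of the 30 had too. Target genes lost 20.6 and 27% of their open loci and upstream regulators 36.7 and 35.3%. Ptpn14, a phosphatase that binds Yap1, had 12 loci closed and 4 opened in Hras.E1A and 7 closed and 4 opened in Hras.Myc. Stk3, the Hippo kinase that activates Lats, had 6 closed and 1 opened in Hras.E1A and 5 each way in Hras.Myc. Taok3, a kinase upstream of Stk3 with as many changed loci in all, had 7 closed and 1 opened in Hras.E1A and 7 and 2 in Hras.Myc. Vgll4, which competes with Yap1 for TEAD factors, had 5 closed and 0 opened in Hras.E1A and 7 and 3 in Hras.Myc. Crim1, a target gene, had 5 and 4 in Hras.E1A and 6 each way in Hras.Myc.

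Among 13032 genes with at least 10 loci, the share of loci open in the 7 lists at Tead1 was most like that at Tacc2, with a mean absolute difference of 2.21 percentage points. For Wwtr1 the nearest gene was Ccny (1.79 points), for Yap1 Rnf8 (2.86), for Amotl2 Nkd2 (2.70) and for Ankrd1 P2rx3 (1.47). The nearest genes to Tead2, Tead3, Tead4 and Lats2 were H3f3b, Slc26a11, Acta1 and Sumo2, at 1.30 to 2.24 points. Lats1, with 9 loci, was not compared. The median difference from all genes was 12.6 points at Tead3 to 17.3 at Wwtr1. A nearest gene out of so many is close by construction, and how close it usually is was not computed. Some nearest genes had few loci, such as Rnf8 with 10 and Acta1 with 11.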

How the data were processed

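ATAC-seq was measured in 12 libraries of 7 groups. According to the labels' processing notes and the study's methods, the authors aligned reads to mm10 with Bowtie2 2.4.5, called peaks with MACS2 2.2.7.1 and recovered low-scoring peaks by sharing positions across samples. They deposited 1 list of 400-bp peaks per group with a score of unstated scale in the deposited column, so depth per library is unknown. Loci were built from merged peaks in Python 3.11.15 with numpy 2.4.6, scipy 1.17.1 and pysam 0.24.0, with GENCODE vM21 basic gene models, and the counting was tested on simulated data. No count or significance test across replicates could be made. The members and gene lists were chosen with earlier results of these data known. Named genes are the 10 members, in each role of the wider list the gene with most loci changed with PD (ties by symbol, so Stk3 over Taok3, whose values are given too), and the nearest gene by share of open loci. Loci described singly were chosen after their states were seen. Alternatives were a higher score threshold, equal list length, 50% cover, a tolerance of 500 bp, flanks of 10 kb, loci nearest the member only, loci outside promoters, a catalogue without TSA lists and other motif windows. Alternatives for single genes were added after the data had been seen. The sequence of 1 locus is not reported here.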

Additional observations from a re-analysis of the deposited data

Results flagged for a closer look

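At Tead3 the balance of opened and closed loci under TSA went opposite ways in the Hras lines: opened minus closed was -2 in Hras.E1A, against its untreated list, and 1 in Hras.Myc, against its own. Each TSA list comes from 1 library and the counts are of a few loci, and the difference between the lines was not tested.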

How the results depend on the processing

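No paired analysis was possible because each list pools its libraries, and libraries could not be left out in turn for the same reason. The values below are shares of member loci or, where named so, closed minus opened loci. With lists of equal size the shares for PD in Hras.E1A were 22.6% closed, against 32.9% over all windows, and 29.3% opened, against 34.9%. The opened share was 28% for PD in Hras.Myc, against 33.4%, and 14.1% for TSA in Hras.E1A, against 19.4%. For loci open in Hdac7SA.Mef2d and closed in Hras.Myc the share was 31.4%, for loci closed in Hdac7SA.Mef2d, 44% of those open in Hras.E1A and 52% of those open in Hras.Myc, for loci open in Hras.E1A and closed in Hras.Myc 8.33%, and the reverse 23%. Closed minus opened was -8 for PD in Hras.E1A, 0 for PD in Hras.Myc, -1 for TSA in Hras.E1A and 14 for TSA in Hras.Myc. Equal size drops the low-scoring peaks of the longer lists by construction, and so brings closed and opened counts close together over the series.

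With the 75% of peaks that scored highest, 13.5% were opened with TSA in Hras.E1A, 22.7% of loci open in Hras.E1A and 27.3% of those open in Hras.Myc were closed in Hdac7SA.Mef2d, and closed minus opened with PD was 26 in Hras.E1A, against 10 in Hras.Myc. With loci nearest to the member's own start, 50% closed with PD in Hras.E1A, and closed minus opened was 6 for PD in Hras.Myc and -2 for TSA in Hras.Myc. With 10-kb flanks it was 10 for PD and 4 for TSA in Hras.Myc, and without promoter loci 4 for TSA. With the same flanks, opened minus closed with PD at Amotl2 was -3 for Hras.E1A, and -1 for Hras.Myc. In the central 100 bp, TEAD letters lay in 11.7% and AP-1 letters in 15% of all member loci, and AP-1 letters in 0% of the 7 opened. Over whole loci TEAD letters lay in 30.1%. The cause of the other shifts was not tested. Depth per library is unknown.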
